A study of Mus musculus with 12 samples.

Results

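CpG methylation was read at 4 loci of red blood cell development in mouse bone marrow stem and progenitor cells: the window around Epor (chr9:21750000-21784999, build mm9), the window around Klf1 (chr8:87410000-87444999), the alpha-globin cluster with Hba-a1 and Hba-a2 (chr11:32095000-32204999) and the beta-globin cluster with the Hbb genes (chr7:110940000-111059999). Deposited positions have at least 10 reads on their strand, so a CpG counts as read in a library only where a strand reached that. A CpG was counted as a member where at least 2 libraries of each group had at least 10 reads, with both strands added. This gave 476 CpGs out of 1152114 autosomal CpGs that passed the same rule: 82 in the Epor window, 139 in the Klf1 window, 245 in the alpha-globin window and 10 in the beta-globin window. They were summed in tiles of 1000 bp, of which 38 held at least 3 member CpGs, against 105495 such tiles in the genome.

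The comparison was between 4 groups of 3 libraries each. All came from C57BL/6 mice of 6 months and from LSK cells, sorted from bone marrow as lineage negative, Sca1+ and cKit+. Leukemic double mutants carried Tet2(-/-) and Nras(G12D) and had leukemia, nonleukemic double mutants carried the same 2 alleles without leukemia, and the single mutants carried Tet2(-/-) or Nras(G12D). Tet2 removes methyl groups from DNA by way of oxidation and was lost in 3 of the 4 groups, while Nras(G12D) is an activating form of a signalling GTPase. The mutants were conditional in blood-forming tissue; what drove the recombination is not given in the sources used here, and wild-type cells were not analysed here. The leukemic group was read from the prefix L of its sample titles together with the series design. Nothing in the labels says whether the libraries of a group came from separate animals, so each p-value speaks of the scatter among libraries only, which may be partly technical. Y chromosome positions numbered 349 in nonleukemic double library 1, 360 and 251 in Tet2 knockout libraries 1 and 2 and 2 to 18 in the 9 others, so these 2 groups hold libraries from different sources, with and without Y chromosome reads. The label LSK rests on the sort, and was not checked with markers, since no expression was measured here.

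In red cell development, the hormone erythropoietin acts through its receptor Epor to keep erythroid progenitors alive, and the transcription factor Klf1 binds CACCC motifs and activates erythroid genes, the globins among them. Hba-a1 and Hba-a2 encode the adult alpha chain of hemoglobin, and the Hbb genes encode the beta-like chains. Methylated CpGs at a promoter usually go with a silent gene, and CpG-dense promoters are usually free of methylation whether or not the gene is active.

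The sequences show how many CpGs lie at each promoter. Reduced representation bisulfite sequencing cuts at CCGG and reads the fragment ends, so a promoter with few CpGs and no nearby CCGG is seldom covered. The 250 bases before the transcription start are given 5' to 3' on the gene's strand from RefSeq (GRCm38.p6), for Epor with the first 30 transcribed bases, and capitals mark each CpG.
Epor: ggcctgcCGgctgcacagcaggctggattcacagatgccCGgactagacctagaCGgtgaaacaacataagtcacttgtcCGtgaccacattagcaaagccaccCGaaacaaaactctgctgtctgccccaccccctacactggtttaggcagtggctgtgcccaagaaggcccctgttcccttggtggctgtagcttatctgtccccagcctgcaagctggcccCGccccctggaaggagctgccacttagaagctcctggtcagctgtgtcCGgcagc
Hba-a1: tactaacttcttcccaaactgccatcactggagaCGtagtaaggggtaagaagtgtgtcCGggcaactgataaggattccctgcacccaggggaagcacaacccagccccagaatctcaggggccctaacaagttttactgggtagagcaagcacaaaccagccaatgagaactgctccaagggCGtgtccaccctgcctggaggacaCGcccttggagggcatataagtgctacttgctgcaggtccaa
Hba-a2: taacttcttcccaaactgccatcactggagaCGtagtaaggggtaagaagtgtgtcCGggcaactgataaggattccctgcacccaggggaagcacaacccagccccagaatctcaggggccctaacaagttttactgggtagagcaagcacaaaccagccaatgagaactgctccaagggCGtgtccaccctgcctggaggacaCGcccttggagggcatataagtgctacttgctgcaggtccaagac
Klf1: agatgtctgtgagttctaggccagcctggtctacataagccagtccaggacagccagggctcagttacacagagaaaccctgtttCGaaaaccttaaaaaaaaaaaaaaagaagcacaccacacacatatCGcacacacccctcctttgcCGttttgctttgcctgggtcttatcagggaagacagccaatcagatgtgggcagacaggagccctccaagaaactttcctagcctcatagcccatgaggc
Epor has 7 CpGs and 3 CCGG in its 300 bases around the start, Hba-a1 and Hba-a2 have 4 CpGs and 1 CCGG each, and Klf1 has 3 CpGs and none. The Hba-a1 and Hba-a2 stretches are the same over 247 of 247 bases once moved by 3 bases against each other, so reads from them could not be told apart. A CACCC motif on either strand was found 2 times before Epor, Hba-a1 and Hba-a2 and 1 time before Klf1; 52% of 32851 promoters hold it in the same length. The letters GATA or their complement TATC occurred 1 time in Epor, Hba-a1 and Hba-a2 and 2 times in Klf1, against 53.6% of promoters with a match.

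The Epor sequence was found in the deposited mm9 positions by the spacing of its CpGs at chr9:21767971-21768270 on the minus strand, with the start at 21768020. Of its 7 CpGs, 6 were listed and 4 were members, at 25 bases into the transcript and at 169, 195 and 210 bases upstream. Placement needed at least 6 matched CpGs, and the sequences of Hba-a1, Hba-a2, Klf1 and the Hbb genes (Hbb-bs, Hbb-bt, Hbb-bh2, Hbb-y) hold 1 to 4, so these could not be placed and no value here can be assigned to their promoters. The last member CpG of the alpha-globin window lay 26379 bases before the window's end, and the last of the 10 members of the beta-globin window lay at position 110970679.

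At the 4 loci the tiles called in leukemic double mutants were all lower than in the groups they were set against, with the widest difference just upstream of the Epor start. Against the nonleukemic double mutants, 3 of 38 tiles were called lower and 0 higher (adjusted p under 0.05 and a difference of at least 10 percentage points), against 3.54% of all tiles called lower and 0.105% called higher. Read against that background, 3 of 38 is a small count, and it is not a result about the loci as a whole. Every leukemic library with a value lay below every nonleukemic library with a value in 14 of 38 tiles, the 3 called tiles included. By the same rule 19.9% of all tiles did so. Leukemic library 3 had no value in the tile upstream of the Epor start or in the Klf1 tile chr8:87435000-87435999, which are among the 14. The median difference over the 38 tiles was -1.07 points, against -2.44 points over all tiles. Against Tet2 knockouts 2 of 38 tiles were called lower (6.97% of all tiles) and 0 higher (0.136%), and 7 did not overlap (19.4%). Against Nras G12D 3 of 38 were called lower (1.86%) and 0 higher (0.0882%), and 7 did not overlap (14.9%). By level, 7.2% of all tiles at 20 to 80% methylation in the single mutants were called lower against nonleukemic double mutants, 4.2% of those over 80% and 0.244% of those under 20%. Among the 3 groups without leukemia 0 of 38 tiles passed in any of the 3 comparisons. In nonleukemic double against Tet2 knockout 1 tile had an unadjusted p under 0.05 (2.7% of all tiles). There was 1 in nonleukemic double against Nras G12D (2.27%) and 2 in Tet2 knockout against Nras G12D (5.01%). The genome had 0.00284% and 0.00569% of tiles called higher in the first 2 comparisons and 0 tiles in the last. With limma on log2 ratios of methylated to unmethylated reads, 0 of 38 tiles were called in any of the 6 comparisons. Of all tiles limma called 1064 lower and 21 higher in leukemic double mutants against Tet2 knockouts. In every other comparison it called 0 of all tiles, so there the 0 of 38 says nothing about these loci. Of the 38, 7 had an unadjusted p under 0.05 in each of the 3 leukemic comparisons. There were 0 in nonleukemic double against Tet2 knockout, 0 in nonleukemic double against Nras G12D and 2 in Tet2 knockout against Nras G12D. The limma share of all tiles at that p was not counted.

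**Figure D1:**
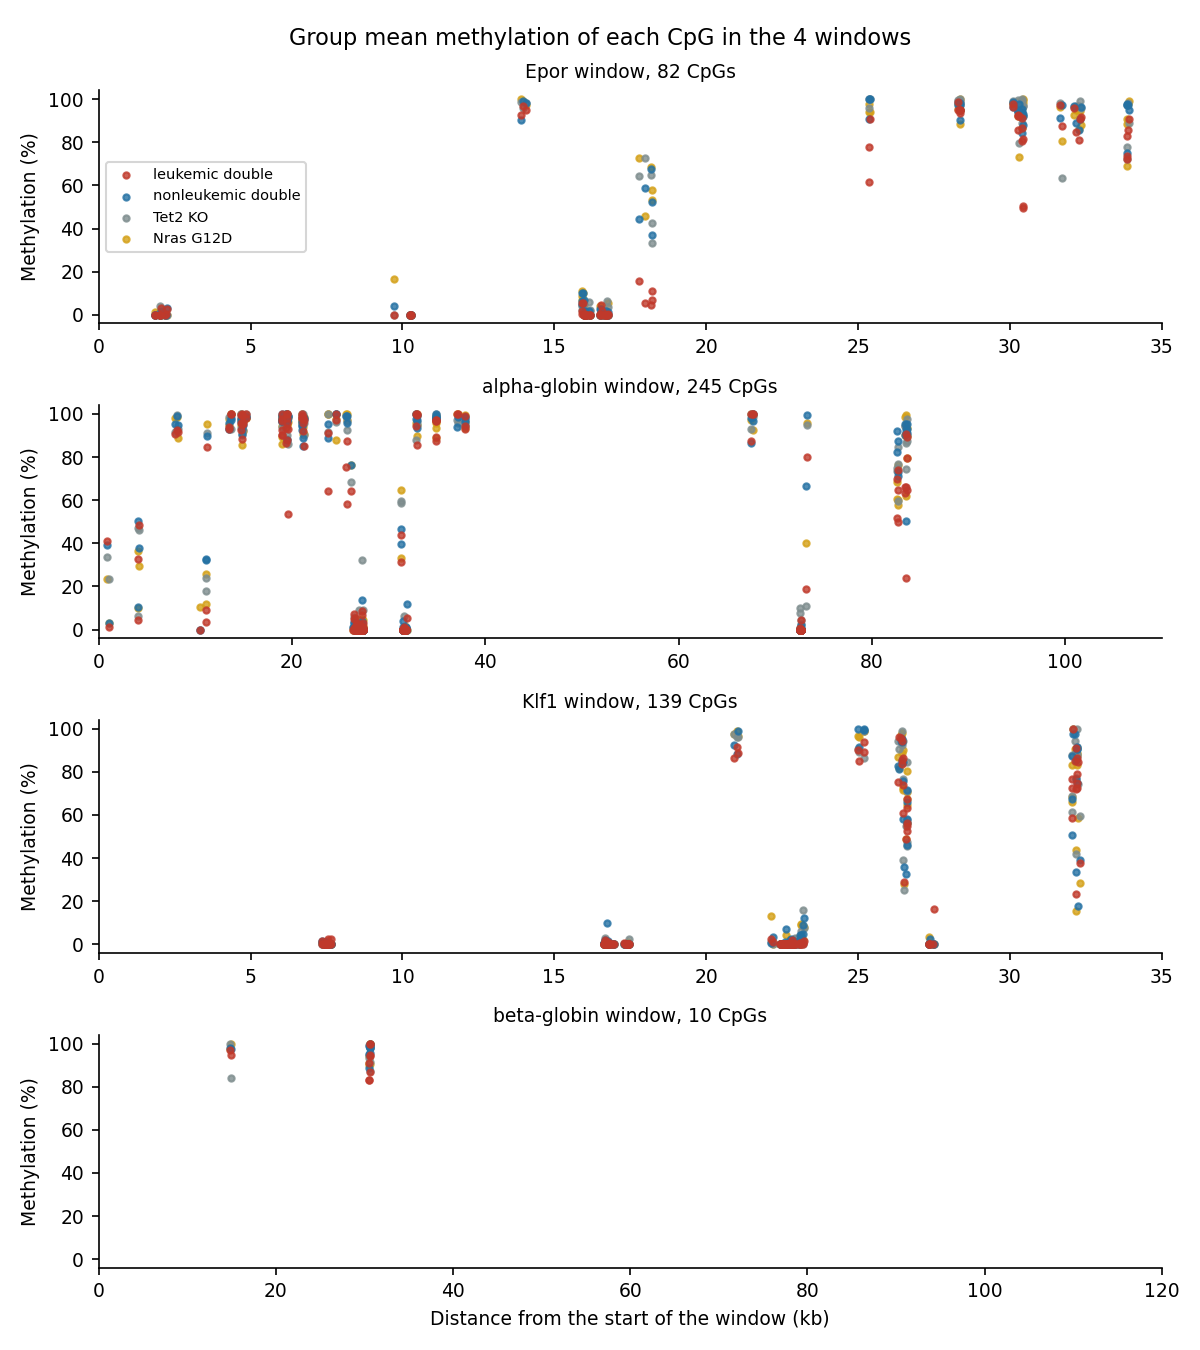
Group mean methylation (percent of reads, vertical) of each member CpG by its distance from the start of the window (kb, horizontal) in the Epor, alpha-globin, Klf1 and beta-globin windows; each point is the mean of a group's libraries. CpGs fell mostly near 0% or near 100% in all 4 groups, and the leukemic points stand apart near 18 kb in the Epor window, where its promoter lies.

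Most member CpGs were either free of methylation or full of it. Over all libraries 296 CpGs were under 20%, 145 over 80% and 35 between. The Epor window, by the mean over its CpGs read in all 12 libraries, stood at 45.02% ± 1.28 in leukemic double mutants, against 50.1% ± 1.14 in nonleukemic double mutants, 50.8% ± 0.437 in Tet2 knockouts and 50.3% ± 0.809 in Nras G12D (SD, n = 3 each). The alpha-globin window averaged 28.5% ± 1.32 in leukemic double mutants, 30.8% ± 0.157 in nonleukemic double mutants, 30.6% ± 0.574 in Tet2 knockouts and 29.8% ± 0.491 in Nras G12D. In the Klf1 window the group means were 19.97% ± 1.22 in leukemic, 20.1% ± 0.378 in nonleukemic double mutants, 21.4% ± 0.983 in Tet2 knockouts and 20.8% ± 0.425 in Nras G12D. The beta-globin window stood at 91.9% ± 4.03 in leukemic, 96.8% ± 0.877 in nonleukemic double mutants, 94.2% ± 3.27 in Tet2 knockouts and 96.0% ± 2.99 in Nras G12D. Over all 916381 autosomal CpGs read in every library the means were 31.5% ± 0.675 in leukemic, 33.9% ± 0.0601 in nonleukemic double mutants, 34.2% ± 0.26 in Tet2 knockouts and 33.4% ± 0.204 in Nras G12D. The window means carry no test; with CpGs weighted equally, the leukemic mean was the lowest of the 4 in each window and over the genome, and of the 4 windows only Epor had all 3 leukemic libraries below the 9 others. Weighted by reads, the leukemic mean of the Klf1 window was 15.80%, above the 13.95% of Nras G12D, and the Epor window stood at 42.52% in leukemic and 43.62% in nonleukemic double mutants.

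At Epor, the receptor, the promoter was near free of methylation in leukemic double mutants and partly methylated in the 9 other libraries. Reads over the member CpGs of the promoter were methylated at 7.16%, 8.73% and 0% in leukemic libraries 1, 2 and 3, against 62.9%, 45.1% and 64.0% in the nonleukemic double mutants. The Tet2 knockouts had 48.7%, 90.2% and 60.5%, and the Nras G12D libraries 31.9%, 59.7% and 54.1%. All 9 libraries without leukemia lay above all 3 leukemic libraries, with a gap between the highest leukemic value (8.73%) and the lowest other value (31.9%). Between 61 and 335 reads stood behind each value; the 0% of leukemic library 3 was 0 of 82 reads, which allows up to 3.66%, counting error only. The libraries were not read at the same CpGs: leukemic library 3 and Tet2 knockout library 2 had listed reads at 1 of the 4 only, the one 25 bases into the transcript. Bulk reads cannot tell apart a change in every cell and a change in the share of cells with an unmethylated promoter.

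**Figure D2:**
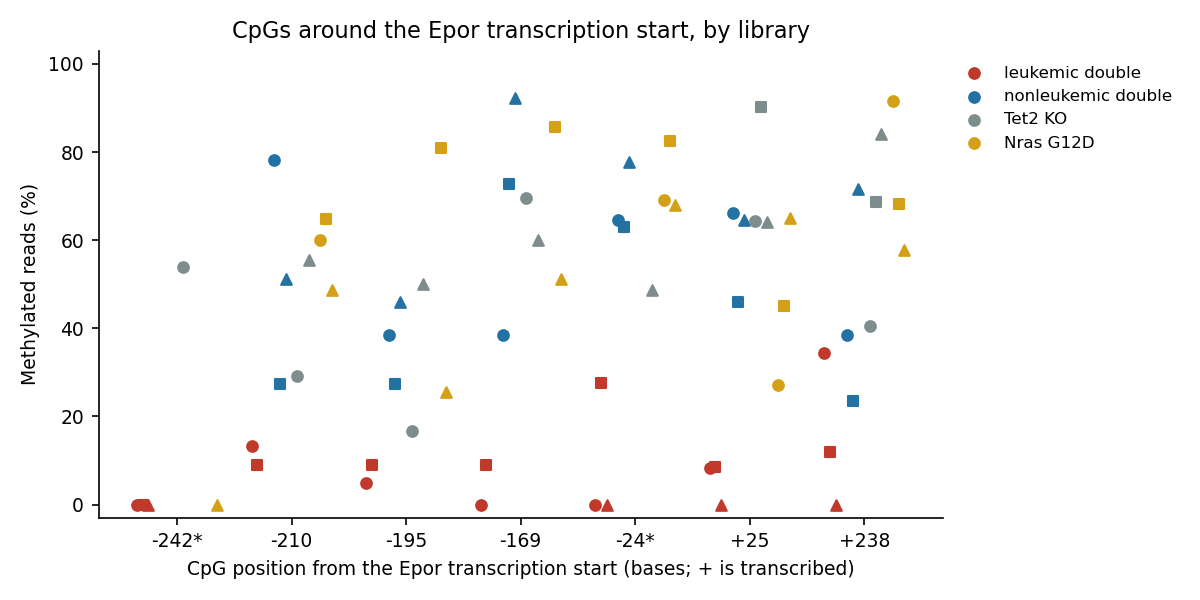
Methylated reads (percent, vertical) at each listed CpG around the Epor transcription start (position in bases, horizontal), 1 point per library and CpG with at least 10 reads. Colours mark the groups, and circles, squares and triangles mark replicates 1, 2 and 3. An asterisk marks a CpG that is not a member, being read in too few libraries of at least 1 group. The leukemic points lie between 0% and 34.4%, and below all other libraries read at the 4 member CpGs of the promoter.

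The CpG 25 bases into the transcript (chr9:21767996) was read in all 12 libraries. It was methylated at 8.39%, 8.57% and 0% in leukemic libraries, against 66.3%, 45.9% and 64.6% in nonleukemic double mutants, 64.3%, 90.2% and 64.0% in Tet2 knockouts and 27.1%, 45.0% and 65.1% in Nras G12D. The leukemic minus nonleukemic difference was -53.3 points (adjusted p = 0.0237 over all CpGs) and the difference from Tet2 knockouts was -67.2 points (adjusted p = 0.00764). The difference from Nras G12D was -40.1 points and did not pass (adjusted p = 0.096). Of the 476 member CpGs this was the 1 called lower (adjusted p under 0.05 and at least 25 points) against nonleukemic double mutants, where 0.125% of all CpGs were, and against Tet2 knockouts, where 0.354% were (0.0105% were called higher). Against Nras G12D 0 member CpGs were called, with 29 of 476 at an unadjusted p under 0.05 (limma 0 and 39). Of all CpGs, 7.39% had an unadjusted p under 0.05, 0.0517% were called lower and 0.00182% higher. Among the groups without leukemia 0 member CpGs were called, with 11, 6 and 13 at an unadjusted p under 0.05 (limma 0 each, and 25, 12 and 20) in nonleukemic double against Tet2 knockout, nonleukemic double against Nras G12D and Tet2 knockout against Nras G12D. Of all CpGs, 0, 8.68e-05% and 0.000174% were called higher and 0, 0.000868% and 0.000781% lower in these 3. In the same order 1.78%, 1.23% and 2.77% of all CpGs had an unadjusted p under 0.05. The limma shares of all CpGs at that p were not counted. Of all CpGs limma called 69 lower and 4 higher in leukemic double mutants against Nras G12D. It called 0 in nonleukemic double against Tet2 knockout, and 7 lower and 0 higher in each of the other comparisons without leukemia. With so few calls over all CpGs, the limma counts of 0 say nothing about these loci. Both strands gave the same picture where both were read: leukemic library 1 had 0% and 13% on the plus and minus strands, and nonleukemic library 1 had 74.2% and 61.5%.

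The tile just upstream of the start (chr9:21768000-21768999, 3 CpGs) had 6.11% and 8.89% in leukemic libraries 1 and 2. The nonleukemic double mutants had 57.1%, 42.4% and 63.5%, Tet2 knockouts 1 and 3 had 36.4% and 55.2%, and Nras G12D had 60.0%, 74.7% and 41.9%. Leukemic library 3 and Tet2 knockout library 2 had fewer than 10 reads on each strand at its 3 CpGs, so they had no value and the fit left them out. The 2 leukemic libraries lay below all 8 others read. The leukemic mean of 7.50% ± 1.96 (SD, n = 2) was -46.8 points from the nonleukemic mean of 54.3% ± 10.8 (n = 3) (adjusted p = 0.0252) and -51.4 points from Nras G12D (adjusted p = 0.0419). Against Tet2 knockouts the difference of -38.3 points missed the threshold (adjusted p = 0.0657). Of its CpGs the one 169 bases upstream (chr9:21768189) had the widest range of group means, with 0% and 8.89% in leukemic libraries 1 and 2, against 38.5%, 72.7% and 92.3% in nonleukemic double mutants, 69.6% and 60.0% in Tet2 knockouts 1 and 3 and 85.7% and 51.3% in Nras G12D 2 and 3.

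Taken as 1 region, a choice made after its values were seen, the Epor promoter differed by -52.1 points between leukemic and nonleukemic double mutants (5.30% ± 4.65 against 57.4% ± 10.6, SD, n = 3 each). That did not pass over the 9609 promoters that could be placed and tested in the same way (adjusted p = 0.096). The differences from Tet2 knockouts (-61.2 points, adjusted p = 0.0536) and from Nras G12D (-43.3 points, adjusted p = 0.455) did not pass either. Of the 9609, 307 had at least 20% methylation in the single mutants. Among these 307, 3 promoters had a larger fall than Epor in leukemic against nonleukemic double mutants, and the median difference was -4.26 points. The next CpG into the gene, 238 bases from the start, had 34.4%, 12.05% and 0% in leukemic libraries, against 38.5%, 23.5% and 71.7% in nonleukemic double mutants, 40.4%, 68.6% and 84.0% in Tet2 knockouts and 91.7%, 68.2% and 57.8% in Nras G12D, so the leukemic and nonleukemic values overlapped there. A CpG 24 bases upstream was read in 10 libraries. Of the Tet2 knockouts only library 3 had listed reads there, too few libraries in that group for the CpG to be a member. It had 0%, 27.6% and 0% in leukemic libraries and 48.8% to 82.6% in 7 others. One 242 bases upstream was read in 5 libraries with 10 to 19 reads each, at 0% in all 3 leukemic libraries, 53.8% in Tet2 knockout library 1 and 0% in Nras G12D library 3.

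Further into the gene, the CpG-dense tiles 1 and 2 kb downstream of the start stayed low in every library. The 21 CpGs of the nearer tile (chr9:21766000-21766999) read 0.247% to 0.413% in leukemic and 0.343% to 3.17% in the other libraries. The 6 CpGs of the next tile (chr9:21765000-21765999) read 0.175% to 3.89% in leukemic and 0.327% to 11.8% in the others. Neither tile passed in any comparison.

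About 12 kb upstream of Epor, a methylated tile of 12 CpGs (chr9:21780000-21780999) was lower in leukemic double mutants than in the 3 other groups. Its values were 83.7%, 85.2% and 81.9% in leukemic libraries, against 95.7%, 91.0% and 94.4% in nonleukemic double mutants, 95.5%, 97.4% and 96.2% in Tet2 knockouts and 99.3%, 93.3% and 94.0% in Nras G12D. The differences were -10.1 points from nonleukemic double mutants (adjusted p = 0.0296), -12.8 points from Tet2 knockouts (adjusted p = 0.00385) and -11.9 points from Nras G12D (adjusted p = 0.0297). All 12 of its CpGs were read in every library, and the leukemic mean was the lowest of the 4 at 8 of them; 2 CpGs, chr9:21780421 and chr9:21780427, were 0% in leukemic library 3 and 65.7% to 82.4% in leukemic libraries 1 and 2, while the one between them, chr9:21780424, was 100% in leukemic library 3. The first difference sits at the 10-point limit: without leukemic library 3 it was -9.25 points (adjusted p = 0.0363) and no longer called.

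The rest of the Epor window moved less or less evenly. A tile 7 kb upstream (chr9:21775000-21775999, 3 CpGs) had 23.1%, 85.7% and 98.8% in leukemic libraries, against 90.8%, 100% and 95.2% in nonleukemic double mutants, a difference of -26.2 points (adjusted p = 0.307). Leukemic libraries 1 and 2 lay below all 8 other libraries read there, of which the lowest had 90.8%, and leukemic library 3 did not. The last tile of the window, 15 kb upstream (chr9:21783000-21783999), had 88.9%, 64.6% and 85.2% in leukemic libraries and 91.9%, 90.8% and 94.0% in nonleukemic double mutants (-12.7 points, adjusted p = 0.233). The tile 14 kb upstream (chr9:21782000-21782999) read 76.1%, 89.1% and 94.7% in leukemic libraries and 99.1%, 97.1% and 93.6% in Tet2 knockouts, a difference of -10.0 points that fell just short of the limit with an adjusted p of 0.0328. The tile 10 kb upstream differed by -0.131 points between leukemic and nonleukemic double mutants, and the tiles 7 and 15 kb downstream of the start read 0% to 2.3% in the libraries with reads there, 9 for the nearer tile and 12 for the farther. Of the 82 CpGs of the window, the leukemic mean was the lowest of the 4 at 30 and the highest at 4. The same shares of all CpGs were not counted, and the leukemic mean was also the lowest over the genome.

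**Figure D3:**
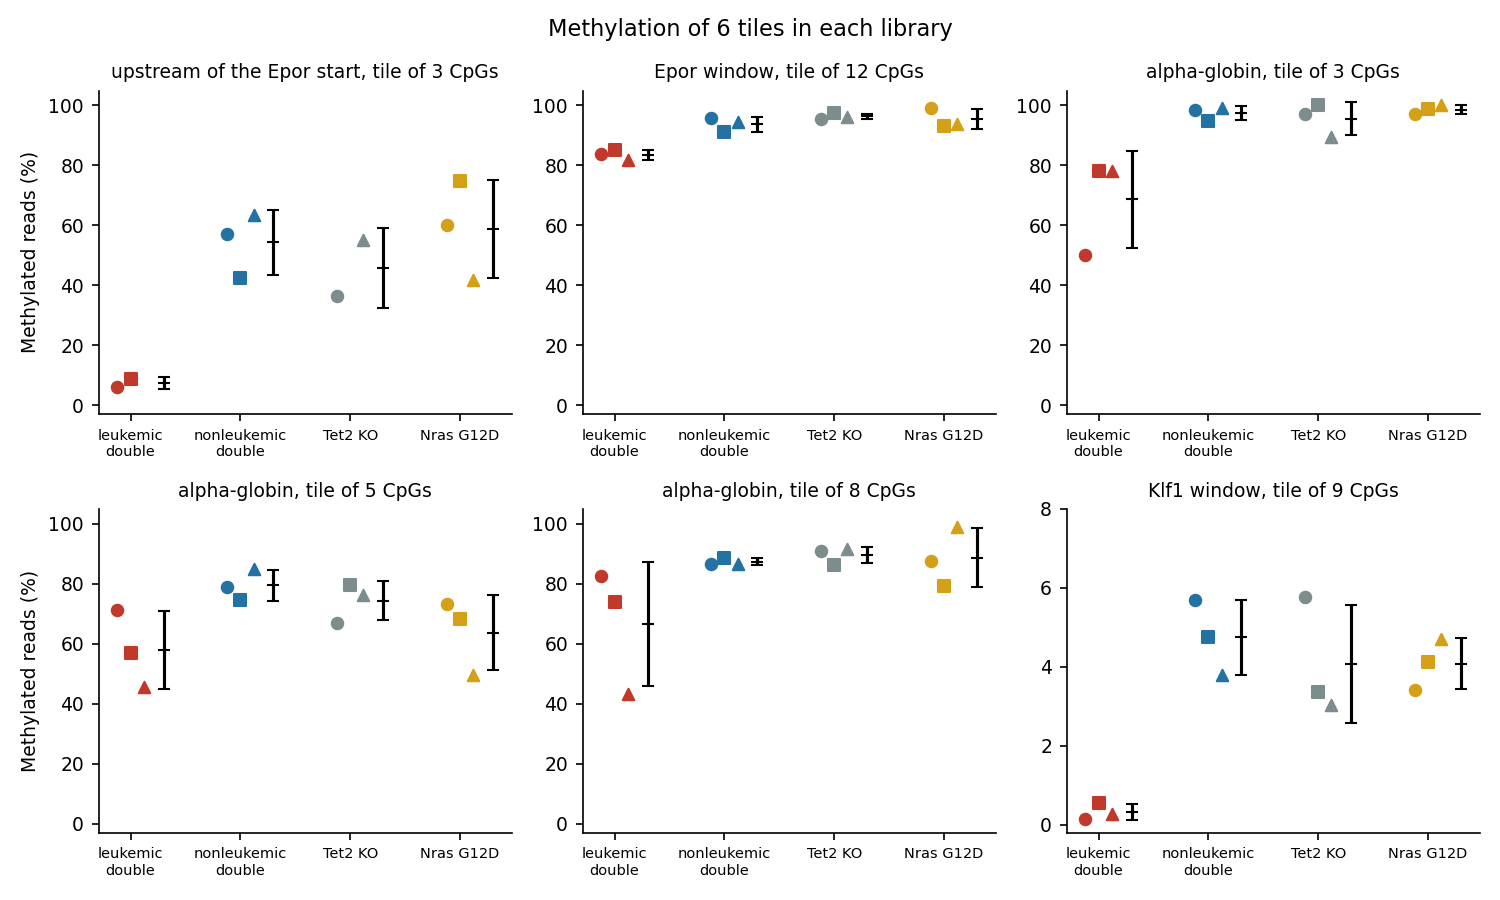
Methylated reads (percent, vertical, scale of 0 to 8% in the last panel) in 6 tiles of the Epor, alpha-globin and Klf1 windows by group (horizontal); points are libraries, with circles, squares and triangles for replicates 1, 2 and 3, and bars are the mean and SD. In the tile upstream of the Epor start the leukemic libraries sit at 6.11% and 8.89%, below all others, and in the 2 tiles of 5 and 8 CpGs of the alpha-globin window leukemic library 3 is the lowest.

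The Klf1 window, around the factor that turns on globin genes, was largely free of methylation. In 6 of its 9 tiles, with 102 CpGs, libraries read 0% to 8.52%. The promoter of Dnase2a, a neighbour that encodes a DNase needed to digest nuclei expelled by red cell precursors, was placed at chr8:87432404-87432703 and read 0% to 0.0546% in leukemic libraries and 0% to 0.618% in the other 9. No tile of the Klf1 window was called.

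Just downstream of the Dnase2a promoter, low methylation was lower still in leukemic cells. In the tile chr8:87433000-87433999, with 9 CpGs, leukemic libraries read 0.155%, 0.554% and 0.288%, against 5.70%, 4.77% and 3.80% in nonleukemic double mutants, 5.78%, 3.37% and 3.05% in Tet2 knockouts and 3.41%, 4.13% and 4.72% in Nras G12D. All 9 libraries without leukemia lay above all 3 leukemic libraries. The differences were -4.42 points from nonleukemic double mutants (adjusted p = 0.0131), -3.73 points from Tet2 knockouts (adjusted p = 0.0193) and -3.75 points from Nras G12D (adjusted p = 0.0308). They passed on p and, at under 10 points, were not called. The leukemic mean was the lowest of the 4 at 5 of the 9 CpGs; the highest single value was 2.96% in leukemic libraries and 29.2% in the others.

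The CpG with the widest spread in the Klf1 window, chr8:87442255, went the other way. It was methylated at 91.6%, 62.7% and 100% in leukemic libraries, against 0%, 25% and 28.9% in nonleukemic double mutants, 85.0%, 51.3% and 87.3% in Tet2 knockouts and 42.0%, 60.4% and 73.3% in Nras G12D. It was the 1 member CpG called higher in leukemic than in nonleukemic double mutants (66.8 points, adjusted p = 0.0376; 0.0066% of all CpGs were called higher). The nonleukemic double mutants were the low group, below all libraries of the 3 others, and the leukemic values overlapped those of both single mutants. The last CpG of the same tile, chr8:87442300, read 18.1%, 20.6% and 74.4% in leukemic and 33.0%, 45.8% and 38.2% in nonleukemic libraries, which overlap. The tile of 14 CpGs stood at 71.3% ± 2.87 in leukemic and 71.7% ± 2.97 in nonleukemic double mutants (difference -0.332 points, adjusted p = 0.946). The Tet2 knockouts, at 80.6% ± 2.54, lay above every library of the 3 other groups, and Nras G12D stood at 71.8% ± 3.03 (SD, n = 3 each). The difference of leukemic double mutants from Tet2 knockouts was -9.23 points and did not pass (adjusted p = 0.0541).

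At the other 2 CpGs of widest range in the Klf1 window, 1 library stood far below the rest. At chr8:87436477 leukemic libraries read 80.1%, 88.9% and 13.3%, against 76.1% to 89.3% in nonleukemic double mutants. At chr8:87436473 the Tet2 knockouts read 57.7%, 11.1% and 48.6% and Nras G12D 54.3%, 82.8% and 78.3%. Both lie in the tile chr8:87436000-87436999, where leukemic libraries had 79.4%, 71.5% and 46.8% and nonleukemic double mutants 71.2%, 73.7% and 74.6% (-7.27 points, adjusted p = 0.674). The 1 tile of the window that averaged over 80%, chr8:87435000-87435999 with 3 CpGs, read 87.5% and 88.4% in leukemic libraries 1 and 2, against 96.6%, 94.0% and 100% in nonleukemic double mutants (-8.94 points, adjusted p = 0.364). Leukemic library 3 had no listed reads there and was left out of the fit. In 102 of the 139 CpGs the 4 group means lay within 10 points of each other.

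In the alpha-globin window, 4 tiles with 152 CpGs were unmethylated in every library, at 0% to 2.81%. They include the placed promoters of Mpg (chr11:32126255-32126554) and Nprl3 (chr11:32167658-32167957), 2 broadly active genes beside the globins; introns of Nprl3 are known to hold the main alpha-globin enhancers. Mpg read 0% to 3.88% in leukemic and 1.22% to 8.49% in the other libraries, and Nprl3 0% to 1.18% in leukemic and 0% to 0.649% in the others. The 11 tiles over 80% on average, with 68 CpGs, differed by -28.7 to 2.57 points between leukemic and nonleukemic double mutants, and they hold the 1 called tile of the window. The leukemic mean was the lowest of the 4 in 8 of them. The share of all such tiles was not counted.

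That tile (chr11:32120000-32120999) ends next to the first unmethylated tile of the window. It read 50.0%, 78.0% and 78.1% in leukemic libraries, against 98.4%, 94.7% and 99.1% in nonleukemic double mutants, 97.3%, 100% and 89.3% in Tet2 knockouts and 97.0%, 98.8% and 100% in Nras G12D. The differences were -28.7 points (adjusted p = 0.0398), -26.8 points (adjusted p = 0.0323) and -29.9 points (adjusted p = 0.0288) from nonleukemic double mutants, Tet2 knockouts and Nras G12D. It rests on 3 CpGs within 53 bases, of which 1 was read in all 12 libraries. Leukemic library 1 had 66 reads there, against 355 and 383 in leukemic libraries 2 and 3, and without it the differences were -19.4, -17.5 and -20.6 points in the same order, each still called. That CpG (chr11:32120672) had 30.3%, 67.8% and 76.8% in leukemic libraries and 97.7%, 89.3% and 100% in nonleukemic double mutants.

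A further 3 tiles of the alpha-globin window had leukemic means over 20 points below the nonleukemic ones and did not pass. Tile chr11:32106000-32106999 (3 CpGs) read 33.5%, 33.2% and 0% in leukemic libraries and 50.9%, 57.2% and 48.7% in nonleukemic double mutants (-30.0 points, adjusted p = 0.106). Tile chr11:32177000-32177999 (5 CpGs) read 71.4%, 56.9% and 45.6% in leukemic and 78.9%, 74.8% and 84.8% in nonleukemic double mutants (-21.5 points, adjusted p = 0.159). Its neighbour chr11:32178000-32178999 (8 CpGs) read 82.6%, 73.9% and 43.3% in leukemic and 86.8%, 88.8% and 86.6% in nonleukemic double mutants (-20.8 points, adjusted p = 0.204). In all 3 the leukemic and nonleukemic libraries did not overlap, and leukemic library 3 was the lowest; in chr11:32106000-32106999 it lacked 1 of the 3 CpGs, the most methylated one. In tile chr11:32177000-32177999 the Nras G12D libraries, at 73.4%, 68.2% and 49.7%, overlapped the leukemic ones.

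Single CpGs of the alpha-globin window with the widest spread did not pass in any comparison. At chr11:32168215 leukemic libraries read 14.6%, 29.7% and 11.8%, nonleukemic double mutants 53.1%, 96.7% and 50.0%, Tet2 knockouts 33.3%, 0% and 0%, and Nras G12D 34.2%, 11.2% and 74.4%. At chr11:32178574 the values were 33.6%, 34.1% and 3.45% in leukemic libraries and 46.2%, 67.2% and 38.2% in nonleukemic double mutants, while Nras G12D read 69.2%, 16.98% and 100%. At chr11:32114577 they were 77.7%, 56.5% and 26.7% in leukemic libraries and 100%, 100% and 97.2% in nonleukemic double mutants. The group means of 199 of the 245 CpGs lay within 10 points of each other, and the leukemic mean was the lowest of the 4 at 44 and the highest at 38. The same shares of all CpGs were not counted.

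The beta-globin window was methylated wherever it was read. Its 1 tile, chr7:110970000-110970999 with 8 CpGs, read 86.9%, 92.4% and 96.2% in leukemic libraries, against 96.6%, 97.8% and 96.5% in nonleukemic double mutants, 97.7%, 93.8% and 94.6% in Tet2 knockouts and 96.3%, 92.3% and 98.6% in Nras G12D. The difference of -5.12 points did not pass (adjusted p = 0.27). All 10 CpGs of the window averaged over 80%, and the widest range of group means was 16.4 points, at chr7:110970525, where leukemic libraries read 58.3%, 91.0% and 100%, against 95.5%, 86.7% and 83.8% in nonleukemic double mutants. At chr7:110954915 Tet2 knockout library 2 stood apart at 63.9%, with 83.8% to 100% in the 11 others. At chr7:110970657 leukemic library 1 was the low one, at 60.8%, with 94.5% to 100% in the 11 others.

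**Figure D4:**
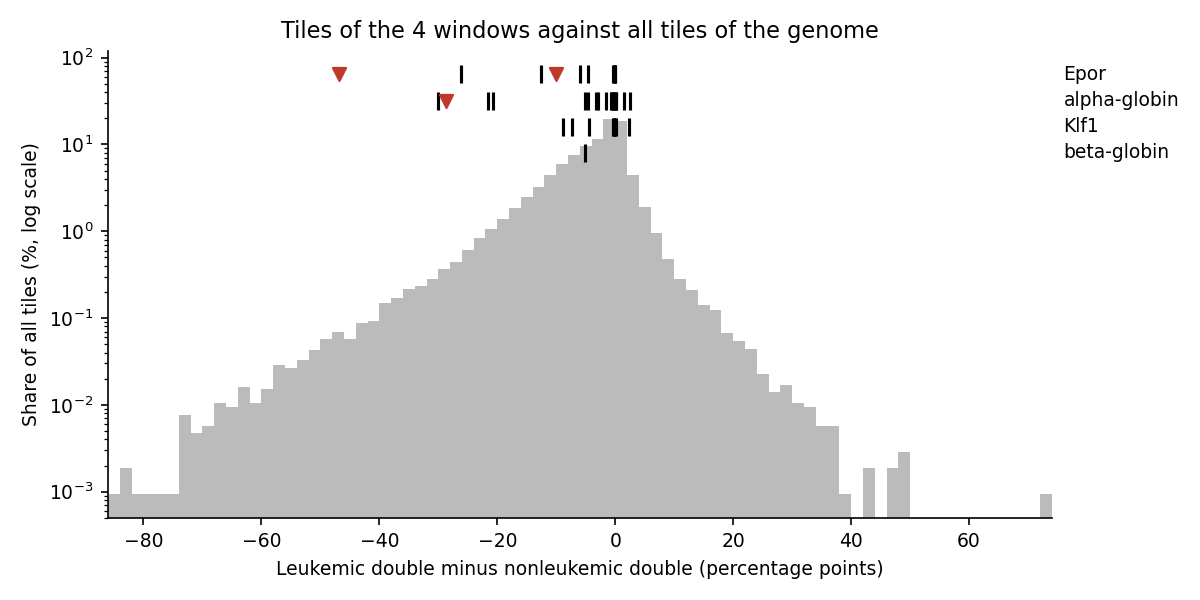
Difference between leukemic and nonleukemic double mutants (percentage points, horizontal) in all 105495 tiles (grey, share of tiles in percent on a log scale, vertical) and in the 38 tiles of the 4 windows (ticks in rows by window; red triangles are called tiles). The whole distribution leans below 0, with a median of -2.44 points, and the tile upstream of the Epor start lies at -46.8 points.

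Other genes of the red cell pathway were looked at through their promoters: 48 genes, of which 36 had a promoter sequence. Counting promoters placed by a single match, 13 genes with 14 promoters could be tested, and with the best of several matches, a choice made after seeing the data, 19 genes with 21 promoters. In both counts 1 promoter was called lower in leukemic double mutants against each of the 3 other groups and 0 higher. Of the promoters with at least 20% methylation in the single mutants, 0.651% were called lower against nonleukemic double mutants. The background was 0.0208% of 9609 promoters against nonleukemic double mutants, 0.0416% against Tet2 knockouts and 0.0104% against Nras G12D. The other 20 promoters were under 20% in every library that had reads there, the highest value being 8.49%; Tal1 was read in 9 libraries. Among them were Tal1 and Zfpm1, a regulator and a Gata1 cofactor of red cell genes, Jak2, Stat5a and Stat5b, which carry the Epor signal, Tfrc, the transferrin receptor, and Alad and Uros, enzymes of heme synthesis. Of these, Zfpm1, Jak2, Stat5a and Stat5b were placed by the best of several matches, and Tal1 rests on 3 CpGs.

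The 1 called promoter was that of Rhd, which encodes a Rh protein of the red cell membrane (chr4:134420201-134420500, 6 CpGs). It was singled out after its values were seen. Its reads were methylated at 37.5%, 17.8% and 30.1% in leukemic libraries, against 85.8%, 89.7% and 93.3% in nonleukemic double mutants, 89.6%, 97.2% and 92.3% in Tet2 knockouts and 69.4%, 90.9% and 93.0% in Nras G12D. At all 6 CpGs every leukemic library lay below the 9 others, with 484 to 1050 reads behind each promoter value. The differences were -61.1 points (adjusted p = 0.00443) from nonleukemic double mutants, -64.6 points (adjusted p = 0.00248) from Tet2 knockouts and -55.9 points (adjusted p = 0.0234) from Nras G12D. Among the 307 promoters with at least 20% methylation in the single mutants, none fell further between leukemic and nonleukemic double mutants. With limma on log2 ratios the Rhd promoter did not pass (adjusted p = 0.44, 0.0933 and 0.308 against nonleukemic double mutants, Tet2 knockouts and Nras G12D). Epor and Rhd were the 2 tested promoters of the member and pathway lists with more than 20% methylation in any library.

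**Figure D5:**
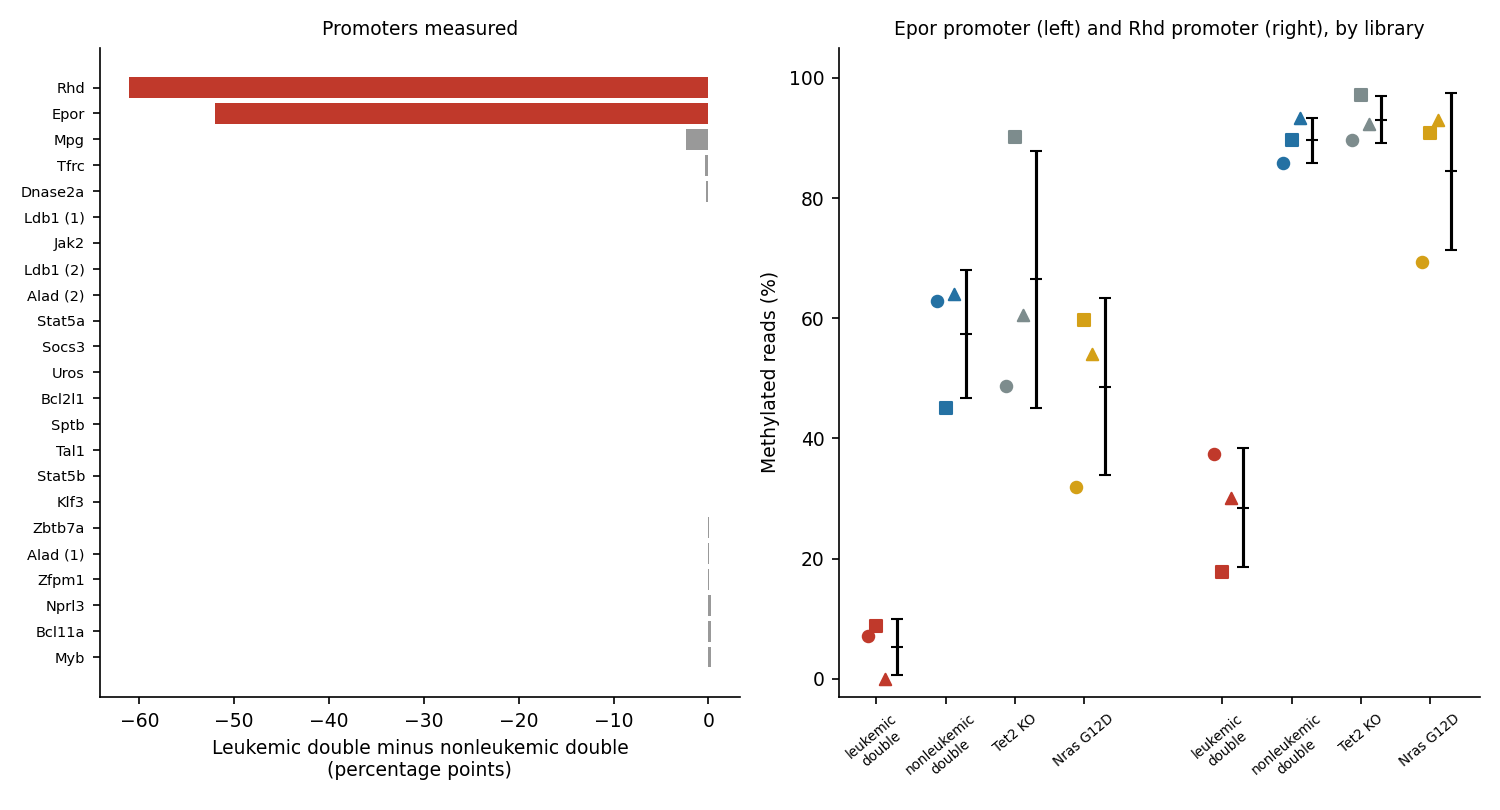
Left, difference between leukemic and nonleukemic double mutants (percentage points, horizontal) at each placed promoter of the 4 windows and the red cell list (rows; numbers in brackets tell promoters of 1 gene apart). Right, methylated reads (percent, vertical) of the Epor and Rhd promoters in each library, with symbols by replicate and bars for mean and SD; every leukemic library lies below all others at both, and the remaining promoters differ by less than 3 points.

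Single libraries and settings decide which of these differences pass. Leaving out any 1 of nonleukemic libraries 1, 2 and 3 left 0 of 38 tiles and 0 of 476 CpGs called against the nonleukemic double mutants, with differences of -42.3 to -52.8 points at the tile upstream of the Epor start (adjusted p = 0.0713 to 0.201). Without leukemic library 1 that tile had a difference of -45.5 points (adjusted p = 0.0522) and was not called. Without nonleukemic library 1 and Tet2 knockout libraries 1 and 2, the 3 with reads on the Y chromosome, no tile or CpG passed in any comparison, and the Epor tile differed by -45.5 points. The sign of every called difference, and of those at the Epor and Rhd promoters, stayed the same in all alternatives that gave it a value. This was largely set in advance. The libraries compared did not overlap at these features, so leaving libraries out could not turn the sign. Changes of model, prior, block or limit left the difference itself as it was. Differences that were not called were not followed through the alternatives.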

How the data were processed

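DNA methylation was measured by reduced representation bisulfite sequencing (MspI, fragments of 150 to 400 bp, single-end reads of 50 bp, per the labels' protocols) in 12 libraries of 6-month-old mice, 3 in each of 4 groups. Reads were mapped to mm9 (NCBIM37) and called with Bismark, per the submitters' processing notes; versions and filters are not given in the sources used here. For each cytosine and strand the authors deposited a read count (coverage) and the percent of reads that were methylated or unmethylated. Each deposited position has at least 10 reads, so a strand with fewer is missing rather than low. Listed positions held 96300485 to 199736369 reads per library, with a median of 65 to 131 reads per tested CpG. Mitochondrial cytosines, which should be unmethylated, read 0.222% to 1.00%.

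Counts were rebuilt from count and percent, strands were added, and CpGs above the 99.9th percentile of coverage in any library were left out. Autosomal CpGs with reads in at least 2 libraries of each group, and tiles of 1000 bp with at least 3 of them, were fitted over all 12 libraries with a quasi-binomial model (Python 3.11.15). Its dispersion was moderated by the empirical Bayes method of limma, with the prior taken from features at 5 to 95%. P-values are two-sided, and each was adjusted by Benjamini-Hochberg over all features of its kind and comparison. Calls were made at an adjusted p under 0.05 where the group means were 10 points apart or more (tiles, promoters), or 25 points for single CpGs. The model was tested on simulated counts. limma 3.58.1 on log2 ratios was the second test, and other alternatives are given with the closing results.

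No annotation of mm9 was used here. Promoters from RefSeq (GRCm38.p6) were placed by matching the spacing of at least 6 listed CpGs: 10668 of 32619 were placed. The offset of 97.9% of candidates was held by at least 5 candidates of the same chromosome, the promoter itself included. Of these, 9609 were tested. The rule for named features took all tiles of the windows (those with small differences given as ranges), every called CpG and the 3 CpGs of each window with the widest range of group means; other CpGs named, Rhd and the promoter test were chosen after values were seen. The members, windows and gene lists were chosen with earlier results of these data known, so no count here is independent of them.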

Additional observations from a re-analysis of the deposited data

How the results depend on the processing

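Tile and CpG counts at the 4 loci depended on the settings more than the differences of the called features did. No called difference, and none at the Epor and Rhd promoters, changed sign in any alternative that gave it a value. As the libraries compared did not overlap at these features, this was largely set in advance. Other named differences were not followed. Against nonleukemic double mutants, 3 tiles and 2 CpGs were called; with only CpGs read in all 12 libraries 1 tile was called, and 0 tiles and 0 CpGs with only the 6 libraries compared, without the 3 libraries with Y chromosome reads, or with limma. The dispersion prior from all features and the replicate block each left 0 CpGs. Leaving out single libraries gave 0 to 3 tiles and 0 to 2 CpGs. Against Tet2 knockouts, with 2 tiles and 1 CpG called, 1 tile was called with CpGs read in all 12 libraries, 1 with only the 6 libraries, 1 with a 20-point limit, 4 with tiles of at least 1 CpG, and 0 without the Y libraries or with limma; CpGs called were 0 with only the 6 libraries, with the prior from all features and without the Y libraries. Single libraries left out gave 1 to 5 tiles, the 5 without leukemic library 1 and likewise without leukemic library 3. Against Nras G12D, with 3 tiles called, the count was 1 with CpGs read in all 12 libraries, 0 with only the 6 libraries, 0 without the Y libraries, 1 without leukemic library 3, Tet2 knockout library 2 and Nras G12D library 3 together, and 0 with limma. Single libraries left out gave 0 to 3 tiles, with 0 without any one of the Nras G12D libraries. In nonleukemic double mutants against Nras G12D 1 CpG was called with only the 6 libraries, against 0. With only CpGs read in all 12 libraries, the tile upstream of the Epor start kept 0 CpGs and the called alpha-globin tile 1. Both were under the minimum of 3, so neither was tested at that setting. The cause of the other losses was not tested, beyond the smaller number of libraries in the fits that leave some out. Against nonleukemic double mutants and Nras G12D, limma called 0 of all tiles of the genome. Of all CpGs it called 270 lower and 20 higher against nonleukemic double mutants, so its 0 CpGs there says nothing about these loci.

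Libraries that share a replicate number did not deviate together: the correlation over 12667 tiles was -0.0177 to 0.0428 in 18 pairs, and 0 pairs passed 0.1. With the replicate block the tile upstream of the Epor start had an adjusted p of 0.0817 against Nras G12D, the Epor CpG 25 bases into the transcript 0.0806 against nonleukemic double mutants, the Klf1 CpG 0.0981 and the Rhd promoter 0.0831 against Nras G12D.

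Each total here counts only the alternatives that gave the feature a value. With at least 20 reads per CpG, or with only CpGs read in all 12 libraries, the tile upstream of the Epor start was not formed. With tiles shifted by 500 bp no called tile was followed. Against nonleukemic double mutants, the tile upstream of the Epor start kept its call in 14 of 21 (-52.8 to -42.3 points). The tile 12 kb upstream kept it in 14 of 23 (-11.4 to -9.08 points) and the called alpha-globin tile in 12 of 22 (-33.4 to -19.4 points). The Epor CpG kept it in 13 of 22, the Klf1 CpG in 8 of 22 (57.8 to 77.8 points) and the Rhd promoter in 16 of 21 (-65.6 to -55.8 points). Against Nras G12D the call was kept at the tile upstream of the Epor start, in 7 of 21, and at the Rhd promoter, in 8 of 21, with an adjusted p of up to 0.988; the tile 12 kb upstream kept its call in 15 of 23 and the alpha-globin tile in 15 of 22. Against Tet2 knockouts the tile 12 kb upstream kept it in 20 of 23, the alpha-globin tile in 16 of 22, the Epor CpG in 19 of 22 and the Rhd promoter in 19 of 21.

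Window means moved with the CpGs and weights used. With at least 20 reads per CpG the alpha-globin means were 25.35%, 27.34%, 27.26% and 26.65% in leukemic double, nonleukemic double, Tet2 knockout and Nras G12D libraries, the Klf1 means 21.28%, 21.57%, 22.91% and 22.32%, and the Epor means 41.11%, 46.29%, 46.43% and 45.74%. Weighted by reads they were 19.64%, 23.26%, 25.48% and 20.33% for alpha-globin, 15.80%, 17.03%, 17.06% and 13.95% for Klf1, where the leukemic mean was no longer the lowest, and 42.52%, 43.62%, 52.41% and 45.94% for Epor. The globin and Klf1 promoters could not be placed, so nothing can be said of them at any setting.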
